A study of Mus musculus with 2 samples.

Results

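The genes of sterol and fatty acid synthesis were followed in mouse epidermis whose keratinocytes carried a deletion of Casr, the gene of the calcium-sensing receptor (CaSR). The set was a list of 45 genes, 22 of the cholesterol branch and 23 of the fatty acid branch, and every probe whose current or older symbol, gene ID or accession led to 1 of them was taken. Of these, 41 genes had a probe among the 17872 genes of the array, and 32 were detected, all of them in both samples. Detection meant a detection p-value of at most 0.01, which ranks a signal against negative control beads. The 17 detected genes of the cholesterol branch and the 15 of the fatty acid branch carry the values below. Mvk, Fdft1, Tm7sf2 and Acacb had no probe in the tables used here.

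The knockout group (KO) had the genotype CaSR fl/fl with a Cre recombinase driven from the keratin 14 promoter, so the deletion was directed to keratin 14 expressing keratinocytes and their progeny. The control group (CON) held CaSR fl/fl littermates without that Cre in their label. All mice were of the C57BL6 strain and 5 days old, and the epidermis was lifted from the dermis of the back skin with dispase. Each group was 1 pool of RNA from 3 mice on 1 Illumina bead array, and so 1 sample. Values have no replicate error, no test between the groups was made, and precision is limited by the number of arrays. The protocols once mention a VDR KO group, whereas every other label names CaSR, and those labels were followed.

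The single probe for Casr, listed as Gprc2a, had a signal of 148.2 in KO (detection p-value 0.0639) and 122.9 in CON (detection p-value 0.891), not well above background in either sample. It gives no check of the genotype labels. Of 25697 probes, 10802 were detected in KO and 10888 in CON. Keratinocyte markers fixed for the tissue check were bright, with Krt5 at 16377 in KO and 19907 in CON, Krt14 at 15114 in KO and 17418 in CON, Krt10 at 17016 in KO and 14628 in CON, and Lor at 14045 in KO and 14350 in CON. Where a gene had several detected probes (1872 genes), their log2 ratios spread around the gene's mean with a pooled SD of 0.11, so that 2 probe SDs equal 1.17-fold. This probe SD holds no variation between mice, pools or hybridisations.

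Cholesterol is built from acetyl-CoA through mevalonate, isoprenoid pyrophosphates, squalene and lanosterol, and lanosterol is then trimmed and reduced to cholesterol. Fatty acids are built from cytosolic acetyl-CoA by carboxylation and chain synthesis, then elongated, desaturated and activated with coenzyme A. The SREBP transcription factors drive both branches, SREBP2 (gene Srebf2) mainly the sterol genes and SREBP1 (gene Srebf1) mainly the fatty acid genes. INSIG proteins hold the precursors of both in the endoplasmic reticulum when sterols are plentiful. In epidermis, keratinocytes make cholesterol and free fatty acids that, with ceramides, fill the spaces between cornified cells and form the permeability barrier.

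Most genes of the cholesterol branch had slightly lower signals in KO. Of the 17 detected members, 14 had a log2 ratio (KO over CON, normalised signals) below 0, where 47.6% of all 8508 detected genes were below 0, and 3 were above 0, where 52% were above 0. The branch median was -0.085, against 0.0066 over all detected genes. The differences were small. At least 1.2-fold lower signals were found for 1 of the 17 members (Msmo1), where 2.96% of all detected genes passed that threshold downwards, and for 0 members in the upward direction, where 2.89% passed. By the wider measure of 2 probe SDs, 3 members were lower (Msmo1, Nsdhl and Stard4), where 4.88% of all detected genes were, and 0 were higher, where 4.62% were. No member was past 1.5-fold, where 0.235% of all detected genes were lower and 0.176% higher. In the authors' non-normalized signals, scaled only to a common median, 10 of the 17 were below 0 with a median of -0.010, where 35.0% of all detected genes were below 0 and their median was 0.05. With that scaling, all detected genes split into 173 at least 1.2-fold lower and 558 higher, against 252 and 246 in the normalised signals. The signs of Mvd, Idi1, Lss and Srebf2 turned with it.

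The fatty acid branch was mixed and held the largest single differences of the set. Of its 15 detected members, 9 had a log2 ratio below 0 and 6 above 0, where 47.6% and 52% of all detected genes were. The branch median was -0.032, against 0.0066 over all detected genes. At least 1.2-fold lower signals were found for 2 of the 15, Elovl6 and Acss2, where 2.96% of all detected genes passed that threshold. They were also the 2 members lower by 2 probe SDs, where 4.88% of all detected genes were. In the upward direction 0 members passed either measure, where 2.89% and 4.62% of all detected genes did. Under median scaling of the non-normalized signals the split was 8 below and 7 above 0, with Elovl5 changing its sign. With that scaling 35.0% of all detected genes were below 0. Probe by probe, 19 of the 23 detected probes of the cholesterol branch and 10 of the 18 of the fatty acid branch had a log2 ratio below 0. The share over all detected probes was not computed.

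**Figure D1:**
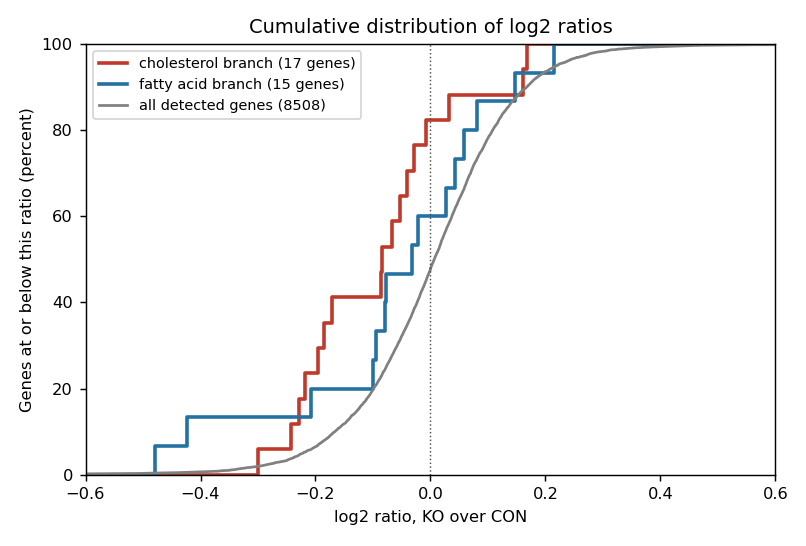
Cumulative percent of genes (vertical axis) at or below each log2 ratio of KO over CON (horizontal axis) for the 17 detected genes of the cholesterol branch, the 15 of the fatty acid branch and all 8508 detected genes, 1 array a group. The cholesterol curve crosses 0 with 14 of its 17 genes to the left, and the fatty acid curve with 9 of its 15. Of all detected genes 47.6% lie to the left of 0. At the low end of the fatty acid curve lie 2 genes, Elovl6 and Acss2. Under median scaling of non-normalized signals 10 of the 17 lie to the left.

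The promoters of the set shared a sequence feature that the choice of genes did not use. RefSeq promoter windows, from 250 bases before to 50 bases after a transcript start in the assembly GRCm38.p6, were matched by symbol for 38 members (45 windows). They were searched on both strands for the NF-Y box (CCAAT, or ATTGG on the other strand), the GC box bound by Sp1 (GGGCGG) and a core of the sterol regulatory element bound by SREBPs (TCACNCCAC), and no 2 different motifs overlapped. NF-Y and Sp1 are known partners of SREBPs at sterol-regulated promoters. The NF-Y box was present for 17 of 18 cholesterol genes with a window and for 15 of 20 fatty acid genes. Of all 27025 genes with a window 41.1% held it (37.4% of all 32851 windows), and of the 6776 detected genes with a window 43.5% did. The GC box was present for 16 of the 18 and 13 of the 20, where 69.5% of detected genes held it (35.7% of all windows). The sterol element core was present for 1 gene in each branch, Hmgcs1 and Acsl1, where 1.42% of detected genes held it (1.24% of all windows). A match describes letters and not bound sites, and other spellings of the elements were not searched.

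The bases before the start are shown for 4 detected members: the gene with a sterol element core in each branch, and in each branch the gene with the lowest log2 ratio among those with an NF-Y box in the window. Capitals mark the sterol element core (TCACCCCAC in Hmgcs1 and its reverse complement in Acsl1) and every NF-Y box, and each sequence runs from 5′ to 3′ along the gene's strand.
Hmgcs1 (chr13:119690101-119690350, plus strand): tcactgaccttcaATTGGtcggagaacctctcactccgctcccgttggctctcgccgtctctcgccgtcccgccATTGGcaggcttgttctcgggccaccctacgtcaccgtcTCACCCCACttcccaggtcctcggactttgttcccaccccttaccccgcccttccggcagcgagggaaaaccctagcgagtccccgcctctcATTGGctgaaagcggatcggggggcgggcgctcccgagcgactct
Msmo1 (chr8:64733579-64733828, minus strand): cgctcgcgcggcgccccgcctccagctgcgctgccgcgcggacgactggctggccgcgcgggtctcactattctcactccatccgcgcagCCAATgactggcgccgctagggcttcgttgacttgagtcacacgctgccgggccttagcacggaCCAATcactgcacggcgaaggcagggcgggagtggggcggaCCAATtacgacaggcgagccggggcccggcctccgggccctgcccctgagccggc
Acsl1 (chr8:46490716-46490965, plus strand): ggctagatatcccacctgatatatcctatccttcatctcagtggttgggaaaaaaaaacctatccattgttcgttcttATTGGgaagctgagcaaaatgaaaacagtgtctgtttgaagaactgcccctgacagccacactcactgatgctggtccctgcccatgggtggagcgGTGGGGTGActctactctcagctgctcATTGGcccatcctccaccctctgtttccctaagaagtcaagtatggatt
Acss2 (chr2:155517793-155518042, plus strand): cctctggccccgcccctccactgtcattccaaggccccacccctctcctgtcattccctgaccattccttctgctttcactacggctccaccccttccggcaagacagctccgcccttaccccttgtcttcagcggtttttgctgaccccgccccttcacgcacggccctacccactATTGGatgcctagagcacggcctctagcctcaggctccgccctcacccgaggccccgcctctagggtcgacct
Hmgcs1 held 3 NF-Y boxes in the 250 bases shown and its sterol element core began 137 bases before the start. Msmo1 held 3 NF-Y boxes, beginning 160, 96 and 55 bases before the start, and no sterol element core. The Acsl1 window belongs to 1 of its 2 starts in the table and held 2 NF-Y boxes with the core, read on the opposite strand, beginning 76 bases before the start. Acss2 held 1 NF-Y box, beginning 73 bases before the start. Hmgcs1 and Msmo1, both with several NF-Y boxes, had signals that differed in opposite directions between the samples. The windows of Elovl6 and Acaca held none of the 3 motifs.

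**Figure D2:**
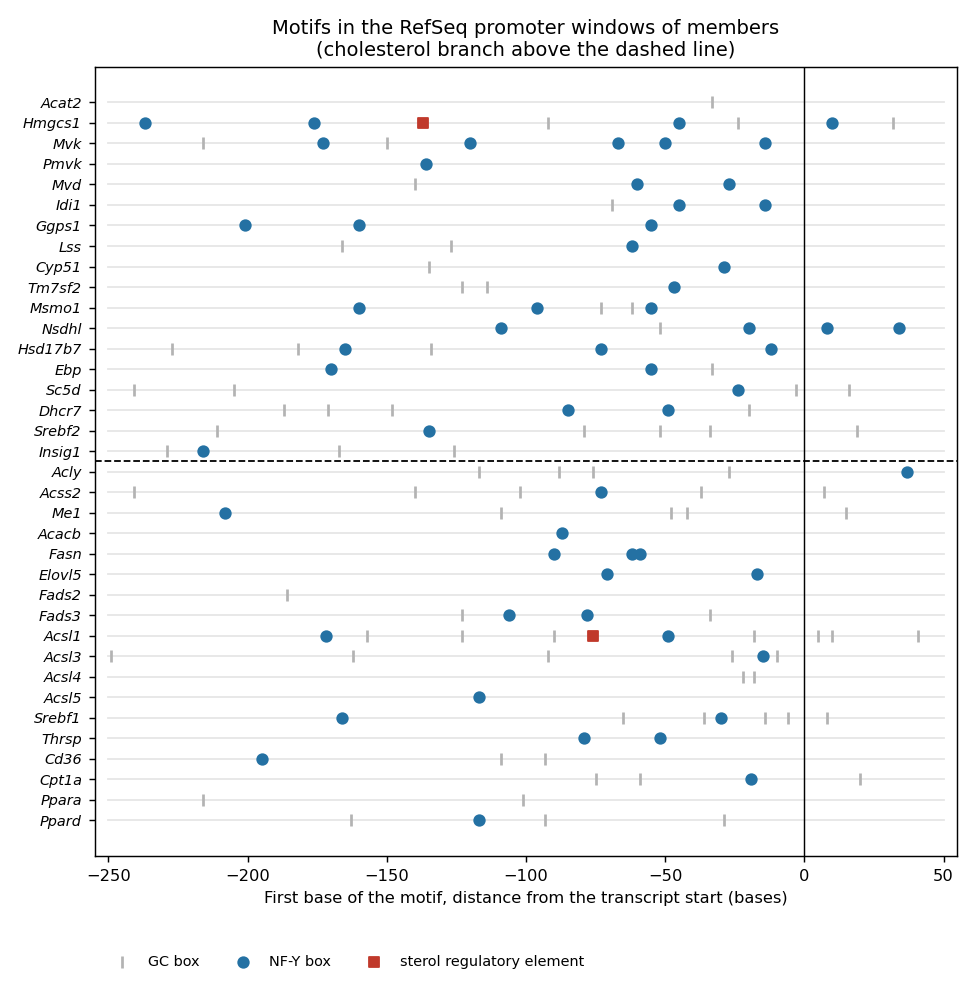
Position of motifs in the promoter windows of the 36 members with at least 1 match, in bases from the transcript start (horizontal axis), with genes in pathway order and windows of several starts of a gene drawn on 1 row. NF-Y boxes recur in nearly every cholesterol gene, and the 2 sterol element cores lie in Hmgcs1 and Acsl1.

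In the first steps, to mevalonate and on to its pyrophosphate, the values pointed both ways. Acat2, the acetyl-CoA acetyltransferase that opens the path, had a signal of 1611 in KO and 1844 in CON, a log2 ratio of -0.19. Hmgcs1, the HMG-CoA synthase of the next step, had 24166 in KO and 21509 in CON, a log2 ratio of 0.17. Its probe was the 4th brightest of the array in KO and the 15th in CON, close to the highest normalised signal of 25847 in both samples. Pmvk, the phosphomevalonate kinase, had 488 in KO and 511 in CON, and Mvd, the mevalonate diphosphate decarboxylase, had 956 in KO and 975 in CON. These 2 genes were nearly level between the samples, with log2 ratios of -0.07 and -0.03.

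The detected isoprenoid genes and Lss were close to level, and Sqle was lower in KO on both of its probes. Idi1, the isopentenyl diphosphate isomerase, had 170.3 in KO and 171.2 in CON, little above the lowest detected signals of 165.9 and 164.9, so this probe could hardly show a lower level. Fdps, the farnesyl diphosphate synthase at the branch point to sterols and prenylated proteins, had 5864 in KO and 5737 in CON. Sqle, the squalene epoxidase and a flux-controlling step of the path, had 3531 in KO and 3748 in CON on its brightest probe, a log2 ratio of -0.09. Its other probe had 767 in KO and 995 in CON, a log2 ratio of -0.37, so that the mean of both was -0.23. The ratios of the 2 probes differed by 0.29 on the log2 scale. Lss, which closes the sterol ring, had 735 in KO and 763 in CON. Ggps1, the geranylgeranyl diphosphate synthase, was not detected on either of its 2 probes, with 128.9 in KO and 125.9 in CON on the brighter.

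Most enzymes after lanosterol had lower signals in KO. Of the 6 detected enzymes, 5 had a log2 ratio below 0, also under median scaling, and their median was -0.19. Cyp51, the lanosterol demethylase, had 1725 in KO and 1942 in CON, a log2 ratio of -0.17. Msmo1, the sterol C4-methyl oxidase listed under its older name Sc4mol, had 3883 in KO and 4779.9 in CON, 1.23-fold lower. Nsdhl, the sterol dehydrogenase that acts with it in removing the C4 methyl groups, had 439 in KO and 519.7 in CON, 1.18-fold lower, and all 4 of its detected probes were below 0, between -0.30 and -0.03. Both of these enzymes of C4 demethylation were lower in KO. The next enzyme of the same complex, Hsd17b7, went the other way, with 5353 in KO and 4789 in CON, a log2 ratio of 0.16 that stayed above 0 under all 8 alternatives. Among those alternatives, only background correction, median scaling and loess changed the value of its single probe.

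The detected enzymes of the last steps also had lower signals in KO. Ebp, the sterol isomerase, had 1123 in KO and 1191 in CON, a log2 ratio of -0.09. Dhcr7, which makes the final reduction from 7-dehydrocholesterol, the precursor shared with vitamin D synthesis, had 561 in KO and 653 in CON, 1.16-fold lower. Sc5d, the lathosterol desaturase, was not detected (146.8 in KO and 151.0 in CON, detection p-values 0.0702 and 0.0501). Along the branch the median log2 ratio was -0.05 in the steps to mevalonate pyrophosphate, 0.01 in the isoprenoid steps, -0.07 in the squalene steps (-0.14 with the mean over probes) and -0.19 after lanosterol (-0.18 with that mean). These steps were not compared by a test.

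The regulators (median -0.11) and the sterol carrier of the branch were level or lower in KO. Srebf2, listed as Srebp2, had 1253 in KO and 1289.6 in CON, a log2 ratio of -0.04 that turned to 0.01 under median scaling. Insig1, itself a target of SREBPs, had 257 in KO and 293 in CON on its brightest probe, a log2 ratio of -0.19. Its 2 other detected probes gave -0.15 and 0.05, and after background correction its brightest probe gave -0.35. Its signals lay close to background. Stard4, a carrier of cholesterol in the cytosol, had 765 in KO and 896 in CON, 1.17-fold lower on its single probe (log2 ratio -0.23).

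**Figure D3:**
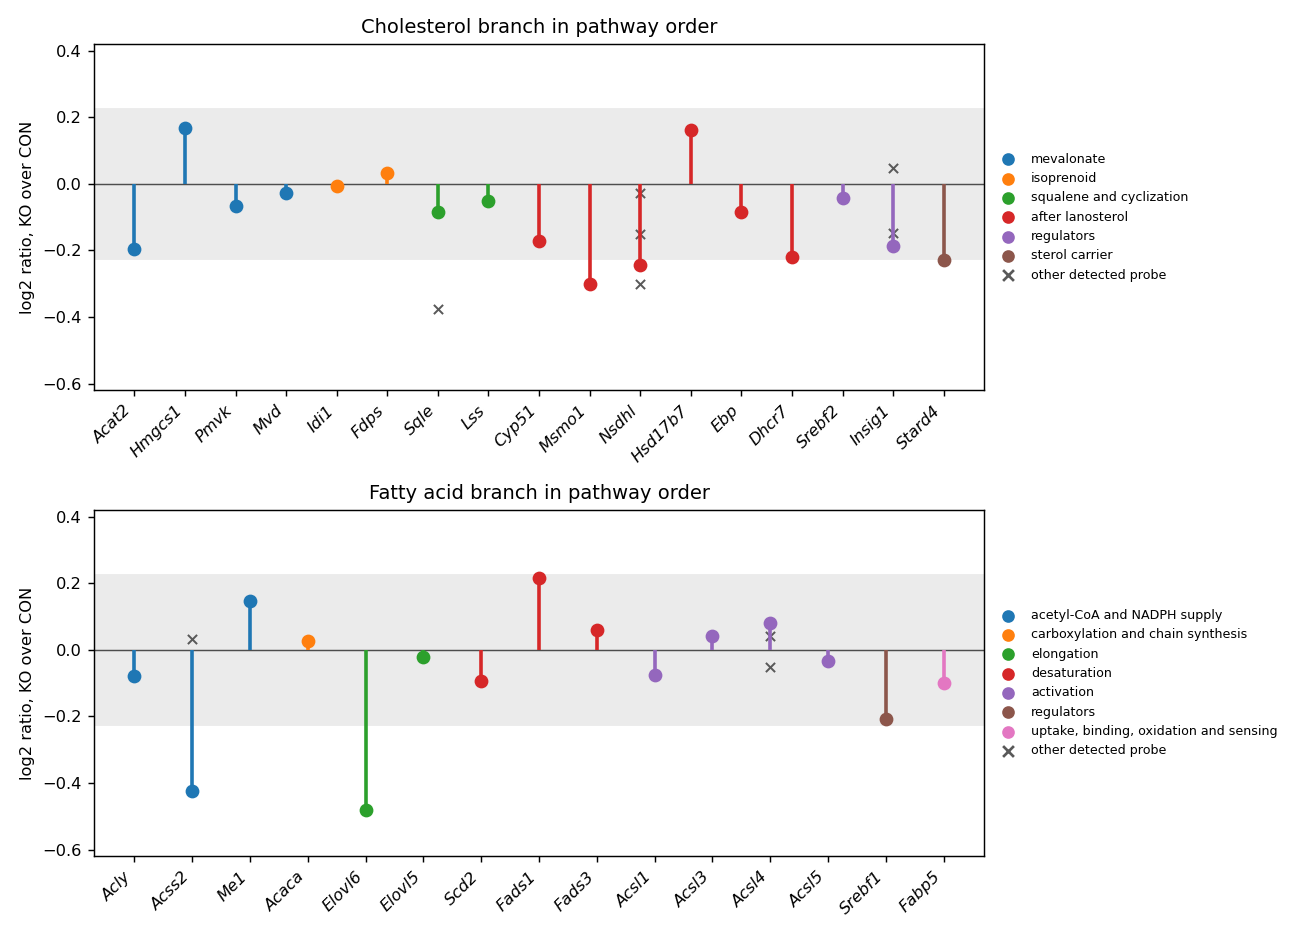
Log2 ratio of KO over CON (vertical axis) for each detected member in pathway order, coloured by step, on the brightest probe (dots) and on other detected probes (crosses), with 1 array a group. The grey band covers 2 SDs of the spread between probes of a gene (0.22 on either side of 0); the dots of Msmo1, Nsdhl, Stard4, Acss2 and Elovl6 and the crosses of the other probe of Sqle and of 1 other probe of Nsdhl lie below it, and no dot or cross lies above it, while Mvd, Idi1, Lss, Srebf2 and Elovl5 turn above 0 under median scaling.

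In the fatty acid branch, the enzymes that supply acetyl-CoA and NADPH differed among themselves. Acly, the ATP citrate lyase that makes cytosolic acetyl-CoA from citrate, had 6740.0 in KO and 7116 in CON, a log2 ratio of -0.08. Acss2, the acetyl-CoA synthetase that uses acetate instead (listed as Acas2), had 1198 in KO and 1607 in CON, 1.34-fold lower on its brightest probe. Its other probe lay at the edge of detection, with 168.7 in KO and 163.1 in CON and a log2 ratio of 0.03, and the mean of both was -0.20. Me1, the malic enzyme that yields NADPH (listed as Mod1), had 821 in KO and 742 in CON, a log2 ratio of 0.15. The signal of the brightest Acss2 probe was thus lower in KO while that of Acly was nearly level, and the activity of the routes was not measured.

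Chain synthesis itself was poorly covered by the array. Acaca, the acetyl-CoA carboxylase of the committed step (listed as Acac), had 1518 in KO and 1490.3 in CON, a log2 ratio of 0.03. Fasn, the fatty acid synthase, had 134.5 in KO and 145.3 in CON on its only probe, with detection p-values of 0.347 and 0.0877, so no ratio is given for it. A probe not well above background does not show that the transcript was absent.

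Elongation held the largest difference of the 32 detected members. Elovl6, the elongase that extends palmitate to stearate, had 7374 in KO and 10285 in CON, 1.39-fold lower. Elovl5, the elongase of polyunsaturated chains, had 8079 in KO and 8203 in CON, a log2 ratio of -0.02. One elongase was thus lower in KO and the other was level. Elovl6 stayed at least 1.2-fold lower under all 8 alternatives, between -0.37 and -0.48. Of these, only background correction, median scaling and loess changed the value of its single probe.

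Of the 3 detected desaturases 2 had higher signals in KO. Fads1, the delta-5 desaturase of polyunsaturated fatty acid synthesis, had 1051 in KO and 906 in CON, 1.16-fold higher, which was the highest ratio of the set. Fads3, its neighbour in the genome, had 852 in KO and 818 in CON, a log2 ratio of 0.06. Fads2, the delta-6 desaturase of the same gene cluster, was not detected (141.7 in KO and 141.4 in CON). Scd2, a stearoyl-CoA desaturase, had 284 in KO and 303 in CON, a log2 ratio of -0.09. Scd1, a relative outside the member list that was singled out after its value was seen, had 7891 in KO and 9114 in CON, a log2 ratio of -0.21.

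The acyl-CoA synthetases, which activate fatty acids for use, were level between the samples. Acsl5 had 9788 in KO and 10011 in CON, and Acsl1 had 617 in KO and 651 in CON. Acsl3 had 529 in KO and 514 in CON, and Acsl4, which prefers arachidonate, had 254 in KO and 240.1 in CON. Their log2 ratios lay between -0.08 and 0.08.

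Of the regulators and fatty acid handling genes, 2 of 7 were detected. Srebf1 had 194.8 in KO and 225.1 in CON, a log2 ratio of -0.21 near the floor of detection that became -0.50 after background correction. Fabp5, the epidermal fatty acid binding protein, had 774 in KO and 829.7 in CON, a log2 ratio of -0.10. Thrsp, Cd36, Cpt1a, Ppara and Ppard were not detected in either sample, with signals of 131.2 to 138.5 in KO and of 117.1 to 142.7 in CON. The genes of fatty acid uptake, oxidation and sensing among the members can therefore not be compared here, apart from Fabp5.

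**Figure D4:**
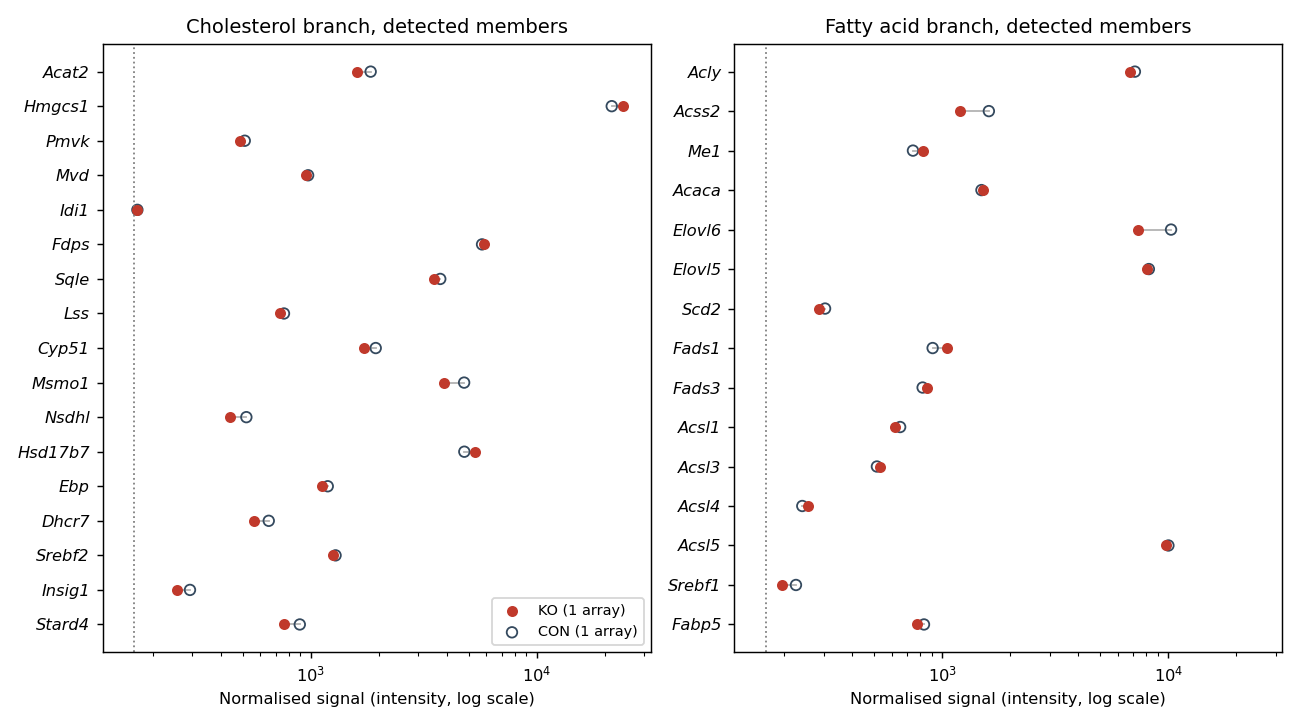
Normalised signal of the brightest probe (horizontal axis, log scale) of each detected member in KO (filled) and CON (open), 1 array each, in pathway order down the page. The dotted line marks the lowest detected signal in KO (165.9); Elovl6, Acss2 and Msmo1 show the widest gaps, and signals of different genes come from different probes and are not comparable.

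Further genes of both pathways were counted in the same way. Of 22 further cholesterol genes (uptake, transport, esterification and SREBP processing), 16 were detected, 13 of them had a log2 ratio below 0 and the median was -0.07, and under median scaling 9 of 16 were below 0. Npc2, which carries cholesterol out of lysosomes, had 363 in KO and 309 in CON. Sult2b1, which makes the cholesterol sulfate of the barrier, had 2423 in KO and 2837 in CON, 1.17-fold lower, with its detected probes between -0.32 and -0.23. Of 37 further fatty acid genes, 30 were detected, of which 13 were below 0 and 17 above 0, with a median of 0.04, and 3 were at least 1.2-fold lower and 1 higher. The 3 lower ones were Pparg, a lipogenic nuclear receptor (786 in KO and 994 in CON, with another probe at -0.03), Acsbg1, an acyl-CoA synthetase (1143 in KO and 1443 in CON), and Elovl1, the elongase of very long saturated chains used in ceramides (4179 in KO and 5187 in CON, with its probes between -0.42 and -0.27). The 1 higher gene, named after its value was seen, was Dbi (23028 in KO and 18889 in CON, with its probes between 0.01 and 0.33).

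Lipid synthesis is also high in sebaceous glands and fat, and markers of these cells and of the upper epidermis are given beside the members. Of 8 sebocyte markers with a probe 7 were detected, 4 of them below 0 and 3 above 0 (median -0.13), with a summed signal of 31011 in KO and 29583 in CON. The 2 brightest were Krt79 (17793 in KO and 16377 in CON) and Mgst1 (6826 in KO and 5333 in CON), both higher in KO. They made up most of that sum. Sums here and below add signals of different probes, which are not comparable between genes, and mainly follow the brightest probes. At least 1.2-fold lower were 3 of the 7, chosen for naming after their values were seen: Awat2 (514 in KO and 728 in CON), Cidea (4197 in KO and 5363 in CON) and Plin2 (510.4 in KO and 629.6 in CON). At least 1.2-fold higher were 2 of the 7, Mgst1 and, also chosen after its value was seen, Mc5r (357 in KO and 265 in CON). Of the 10 listed markers 2 are also lipid pathway genes. Of 10 adipocyte markers 5 were detected, 4 below 0 (median -0.17), summing to 3710.1 in KO and 3945 in CON, with Lpl at 1717 in KO and 1559.6 in CON and Pparg as above. Adipoq, Plin1 and Fabp4, defining genes of fat cells, were not detected. Suprabasal keratinocyte markers had 7 of 9 detected members below 0 (median -0.14), summing to 59818 in KO and 61227 in CON. Named after their values were seen, Klk6 (1276 in KO and 2001 in CON), Ivl (2319 in KO and 3249.5 in CON) and Sbsn (6685 in KO and 8262 in CON) were the 3 of them at least 1.2-fold lower. Klk6 was past 1.5-fold, where 0.235% of all detected genes were that much lower. The 2 above 0 were Krt10 (17016 in KO and 14628 in CON) and Krt1 (9178 in KO and 8498 in CON). Lor was nearly level, with a log2 ratio of -0.03. Hair follicle keratinocyte markers had 4 of 6 detected members below 0 (median -0.19), summing to 17699 in KO and 21610.0 in CON. Krt71, at 7253 in KO and 9572 in CON, and Krt27, at 7672 in KO and 8883 in CON, led this sum. The 2 above 0, named after their values were seen, were Hoxc13 (315 in KO and 247 in CON) and Dsg4 (185 in KO and 157 in CON). Of the 6, 2 were at least 1.2-fold lower and 1, Hoxc13, at least 1.2-fold higher. Among all detected genes 47.6% were below 0, 2.96% were at least 1.2-fold lower and 2.89% at least 1.2-fold higher. The part of these cells in the lower sterol signals was not tested, and in pooled epidermis fewer cells of a type and less RNA per cell cannot be told apart.

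The remaining marker lists differed in direction, beside 47.6% of all detected genes below 0 and 52% above 0. Basal keratinocyte markers were split 3 and 3 (median 0.0075). Langerhans and myeloid markers were above 0 in 6 of 6 (median 0.15), with Cd74 at 5457 in KO and 5353 in CON and H2-Ab1 at 4974 in KO and 4592 in CON, although other probes of both genes lay below 0. T cell markers were below 0 in 4 of 4 (median -0.15), with Cd3g at 1240.2 in KO and 1304 in CON and Cd3d at 473 in KO and 533 in CON. Melanocyte markers were split 2 and 2 (median -0.0037), with Dct at 2189 in KO and 2138 in CON and Pmel at 1107 in KO and 1139 in CON. Of 6 fibroblast markers 2 were detected, Dcn at 503 in KO and 519 in CON and Col1a1 at 169.3 in KO and 169.7 in CON. Of 5 skeletal muscle markers 4 were detected (median 0.02), with Tnni2 at 273 in KO and 277 in CON and Mylpf at 268 in KO and 272 in CON.

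**Figure D5:**
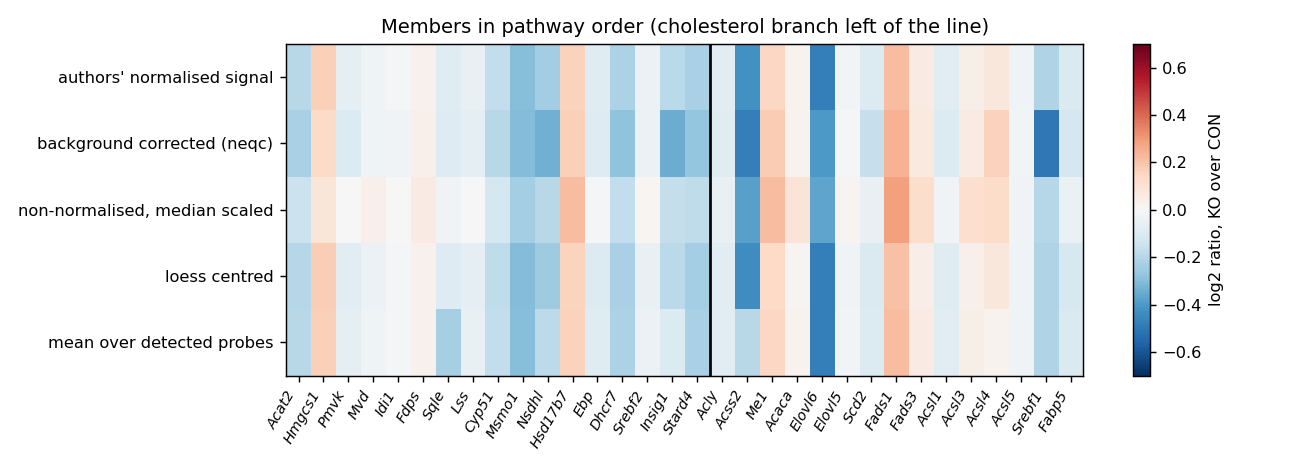
Log2 ratio of KO over CON (colour, from blue for lower to red for higher in KO) of the 32 detected members in pathway order under 5 ways of computing it, 1 array a group. Elovl6, Acss2 and Msmo1 are blue and Fads1, Me1 and Hsd17b7 are red in every row, whereas Mvd, Idi1, Lss, Srebf2 and Elovl5 turn above 0 in the median-scaled row.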

How the data were processed

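Epidermal RNA of 1 KO and 1 CON pool was measured on Illumina bead arrays. The authors deposited, per the file headers, a linear intensity and a detection p-value for each of 25697 probes, before and after normalization, and the authors' value table equalled the normalized table (maximum difference 0). The submitters' processing notes name GenomeStudio 2011.1. The sources used here do not give the normalization method. Ranked normalized intensities of both arrays matched within 0.172 percent, and the lowest was 106.2 in both, so background remained, which draws ratios of dim probes towards 1.

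Probes were named through gene ID (16938), accession (7420), symbol (465) or synonym (552) against RefSeq genes of GRCm38.p6, and 322 kept the file's symbol. Normalized intensities were raised to the lowest detected signal of each array (165.9 in KO and 164.9 in CON). A gene needed 1 sample with a detection p-value at or under 0.01, and its brightest probe represented it. Ratios are KO over CON on the log2 scale. With 1 sample a group no test was made. Alternatives used limma 3.58.1 (neqc) on the non-normalized intensities, median scaling, loess, other detection filters, the mean over probes and no floor. The ratio computation was tested on simulated data. Python 3.11.15 was used.

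The members, lists and the 1.2-fold threshold were chosen with earlier results of these data known. Named were the detected members, the 3 other pathway genes of each list with the largest absolute ratio and the 2 brightest markers of each cell type. One gene that this rule selects is not reported here. Promoter windows were shown by the rule given beside them. Probe sequences were not used here.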

Additional observations from a re-analysis of the deposited data

How the results depend on the processing

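Of the 32 detected members, 27 kept the sign of their log2 ratio under all 8 alternatives (18 below 0 and 9 above 0), and the 5 others (Mvd, Idi1, Lss, Srebf2 and Elovl5) changed sign under median scaling of the non-normalized signals alone. The other detection filters and the setting without a floor returned the main value for every detected member, so they could not change a sign. For members with 1 detected probe the mean over probes could not either. Background correction widened the overall spread of ratios (SD 0.296 over all detected genes, against 0.150; 1029 at least 1.2-fold lower and 1035 higher, 12.1% and 12.2%), although the ratio of Elovl6 narrowed (-0.40, against -0.48), and with it 5 of 17 cholesterol members were at least 1.2-fold lower (Msmo1, Nsdhl, Dhcr7, Insig1 and Stard4). Under median scaling 0 cholesterol members were at least 1.2-fold lower and 1 fatty acid member (Fads1) was at least 1.2-fold higher, with all detected genes shifted upwards to a median of 0.05. With the mean over detected probes 1 fatty acid member was at least 1.2-fold lower, since the dim second probe of Acss2 entered its mean. Without a detection filter the fatty acid median was -0.0094 over 22 genes, as the undetected members entered it. Both branch medians stayed below 0 under all 8 alternatives. No alternative that leaves out a replicate could be run, and no paired analysis was possible because each group was 1 sample. Background correction moved 2 members, Insig1 and Srebf1, by more than 1 probe SD, and the mean over probes moved 2, Sqle and Acss2. Background left in the normalized signals draws the ratios of dim members towards 1.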

Other observations

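Promoter windows of members without a detected signal or without a probe also held NF-Y boxes. Mvk, the mevalonate kinase, held 5 in 1 window, as many as any member window (the most per window was 5), and Fasn held 3. Over all members 59 boxes were found, with a median position 67 bases before the start, and 29 of the 59 began between 100 and 20 bases before it.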
